A study of Mus musculus with 2 samples.

Results

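Transthyretin (Ttr), retinol-binding protein 4 (Rbp4) and Stra6 were described in single cells of the murine retinal pigment epithelium (RPE). The members were the rows of the deposited matrices that carry these 3 symbols among 27998 listed genes, and all 3 were found in both matrices. The data came from 2 male C57BL/6J mice, R1 and R2, without a further genotype or treatment. The sampling protocol gives an age of postnatal day 36, and the age field of the labels gives 4 to 5 weeks. RPE sheets from both eyes of a mouse were released with trypsin from eyecups without retina, dissociated, and sorted as DAPI-negative and calcein-positive cells. Transcripts were counted in 10x Genomics droplets by unique molecular identifiers (UMIs), each of which stands for a molecule tagged near its 3' end, so levels of different genes need no scaling by length.

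In the blood, retinol travels bound to Rbp4, and Rbp4 in turn is held by Ttr, a protein that also carries thyroxine. Stra6 is the membrane receptor that takes retinol from Rbp4 into the cell, and in the eye it lies on the basal side of the RPE. Inside the RPE, retinol is esterified by Lrat, isomerized by Rpe65 and oxidized by Rdh5 before 11-cis retinal is handed to photoreceptors. Ttr is made mainly by the liver, the choroid plexus and the RPE.

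The number of cells that passed quality checks was 2671 in R1 and 2847 in R2, with a median of 8505 and 7689 UMIs. Each mouse is 1 library, and 12 cell barcodes occurred in both. Of the 8 RPE markers listed, the median cell outside the low-Ttr group described below had 7 in R1 and 7 in R2, and all 2612 and 2828 of these cells had at least 3.

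The gene for Ttr (ENSMUSG00000061808) lies at chr18:20665280-20674321 on the plus strand of GRCm38 and overlaps no other annotated gene. Rbp4 (ENSMUSG00000024990) lies at chr19:38116629-38125281 on the minus strand and also overlaps none. Stra6 (ENSMUSG00000032327) lies at chr9:58063788-58153996 on the plus strand, where it overlaps Ccdc33 on the minus strand and the noncoding Gm16131 on the plus strand. Ccdc33 had 413 UMIs in R1 and 486 in R2, and Gm16131 had 0 in both.

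Ttr had the most UMIs of all genes in both mice. It accounted for 2769005 UMIs, or 11.3% of all UMIs, in R1 and for 3504126 UMIs, or 12.7%, in R2. The next gene was Ptgds, prostaglandin D2 synthase, and Ttr had 1.87 times its UMIs in R1 and 2.11 times in R2. Cst3, the protease inhibitor cystatin C, came next, and Ttr had 2.67 and 2.71 times its UMIs. Rgr, a retinal G protein-coupled receptor, and Apoe, apolipoprotein E, followed, with Ttr at 5.61 and 5.34 times Rgr and at 6.12 and 7.64 times Apoe.

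Ttr was found in every cell of both mice. The median cell of R1 gave Ttr 11.2% of its UMIs, and the median cell of R2 gave it 13.0%. In R1, the 5th and 95th percentiles were 7.44% and 15.4%, and the lowest and highest cell had 0.310% and 23.8%. In R2, these percentiles were 9.52% and 16.2%, and the extremes 0.206% and 25.3%. In UMIs, the median cell held 941 Ttr molecules in R1, with a range of 8 to 3580, and 988 in R2, with a range of 7 to 5647. The histogram of the Ttr share shows that most cells formed a single broad peak in each mouse, and that a small group of cells lay apart near 0.

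**Figure D1:**
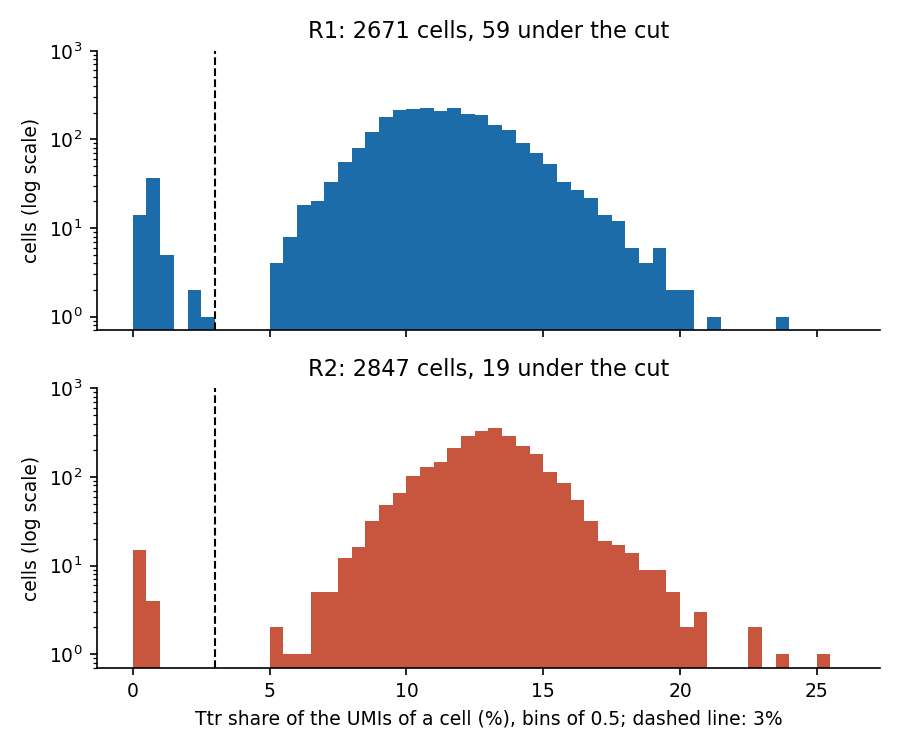
Number of cells (log axis) by the share of a cell's UMIs taken by Ttr (bins of 0.5 percentage points) in R1 (top) and R2 (bottom), with the cut of 3% as a dashed line. No cell of either mouse lies between 3% and 5%, and 59 cells of R1 and 19 of R2 lie under the cut.

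The spread of Ttr over cells was far wider than UMI counting alone gives. Among all cells, the coefficient of variation (CV) of the Ttr share was 24.9% in R1 and 17.5% in R2, and sampling of UMIs made up 1.89% and 3.58% of the variance. Without the low-Ttr cells, the CV was 20.4% in R1 and 15.6% in R2. Over the same cells Ptgds had a CV of 17.2% and 13.7%, Cst3 of 17.8% and 15.0%, Rgr of 33.5% and 25.5%, and the nuclear RNA Malat1 of 64.1% and 45.0%. Ttr thus varied more than Ptgds and Cst3 and less than Rgr and Malat1 in both mice, as a description of 2 libraries.

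Over all cells, the share of Ttr was similar over the depth of a cell in R1 and lower in deep cells of R2. Among cells at or above 3% Ttr, the share was lower in deep cells of both mice. Depth was counted as UMIs outside the 3 members, and the cells of a mouse were split into 5 depth classes of equal size. From the shallowest to the deepest class, Ttr took 11.0%, 11.6%, 11.4%, 11.4% and 11.0% of the UMIs in R1. In R2 it took 13.4%, 13.1%, 13.2%, 12.8% and 12.2%. Among cells at or above 3% Ttr, the shallowest and deepest class had 11.999% and 11.0% in R1 and 13.5% and 12.2% in R2. The slope of log2 Ttr UMIs on log2 UMIs outside Ttr over these cells was 0.955 in R1 and 0.942 in R2, where a slope of 1 would be a constant share. The Pearson correlation of the share with log2 depth was -0.141 and -0.209 over 2612 and 2828 cells, which share library and sampling, so no p-value is given.

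**Figure D2:**
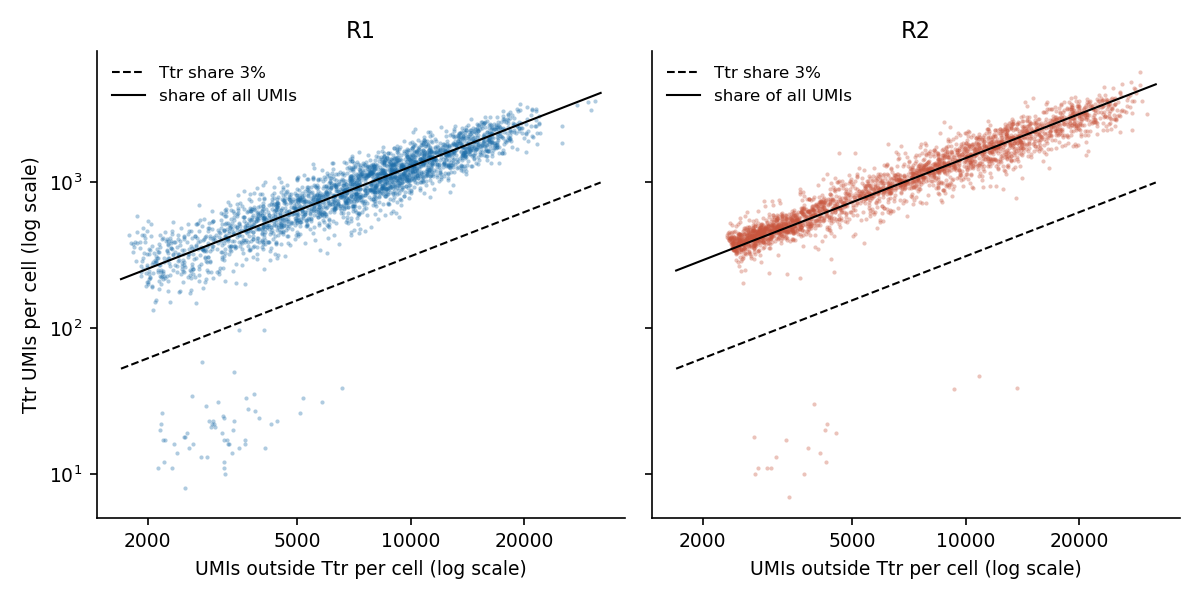
Ttr UMIs against UMIs outside Ttr (both log axes) for each cell of R1 (left) and R2 (right), with the Ttr share of all UMIs as a solid line and the cut of 3% as a dashed line. Cells follow the solid line over the whole range of depth, and the cells under the dashed line are a separate cloud with 8 to 97 Ttr UMIs in R1 and 7 to 47 in R2.

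To test depth over mice, UMIs were summed over the deepest and shallowest class of each mouse and compared with edgeR's quasi-likelihood test, with the mouse as a block. Of the 10426 genes tested, 137 (1.31%) passed a false discovery rate of 0.05, 5 of them higher (0.048%) and 132 lower (1.27%) in deep cells. The higher and lower calls were 0 and 57 with DESeq2, 0 and 38 after subtraction of ambient RNA, 0 and 50 without the mouse block, and 1 and 48 without low-Ttr cells. None of the 3 members did, either with edgeR or with DESeq2, and none had an unadjusted edgeR p under 0.05. The log2 fold change of the deepest against the shallowest class was -0.06 (SE 0.163, edgeR adjusted p = 0.971) for Ttr. It was 0.12 (SE 0.136, edgeR adjusted p = 0.883) for Stra6 and 0.17 (SE 0.559, edgeR adjusted p = 0.973) for Rbp4. The shallowest class of R1 held 51 of its 59 low-Ttr cells. With these cells left out the log2 fold change of Ttr was -0.16 (SE 0.105, edgeR adjusted p = 0.808).

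Stra6, the receptor, was found in nearly all cells at a level far under that of Ttr. It had 19942 UMIs in R1 and 21685 in R2, which is 9.14 and 8.99 per 10000 UMIs outside Ttr. The share of cells with a UMI was 94.3% (exact 95% interval 93.4% to 95.2%) in R1 and 94.2% (93.2% to 95.002%) in R2. The median cell held 6 and 5 UMIs, and the highest 39 and 48. When each cell was thinned to 3000 UMIs outside Ttr, the share was 89.9% of 2391 cells and 88.8% of 2365 cells. By depth class, the level of Stra6 was between 8.50 and 9.29 per 10000 in R1 and between 8.58 and 9.23 in R2. Intervals here and below cover counting error only.

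Rbp4, the plasma carrier, was rare. It had 154 UMIs in R1 and 180 in R2, or 0.0705 and 0.0746 per 10000 UMIs outside Ttr. A UMI was present in 105 cells of R1 (3.93%, exact 95% interval 3.23% to 4.74%) and 97 of R2 (3.41%, 2.77% to 4.14%). After thinning to 3000 UMIs the shares were 2.22% and 1.73%. Most Rbp4 UMIs came from cells with few of them, but 8 cells of R1 and 19 of R2 held 3 or more, up to 7 and 6, and these gave 19.5% and 38.9% of all Rbp4 UMIs.

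The cells with 3 or more Rbp4 UMIs had Ttr much as other cells did. Their median Ttr share was 11.5% in R1 and 12.6% in R2, against 11.2% and 13.0% in cells without an Rbp4 UMI. They were deeper, with a median of 9789.5 and 10754 UMIs outside Ttr against 7463 and 6498. Rbp4 had no common order over depth in the mice. From the shallowest to the deepest class it was 0.101, 0.0983, 0.0821, 0.0580 and 0.0578 per 10000 in R1 but 0.0193, 0.0590, 0.0940, 0.0950 and 0.0671 in R2. The shallowest class of R2 held 3 Rbp4 UMIs and that of R1 held 16.

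Cells with at least 3 microglial markers should lack these transcripts and serve as a background, but there were only 4 such cells in R1 and 3 in R2. Their median depth was 6170 and 12707 UMIs. Ttr took 0.710%, 2.03%, 6.24% and 6.45% of the UMIs of the R1 cells, and 0.371%, 5.40% and 10.1% of the R2 cells, so the deeper of them held Ttr above the cut of 3%. Stra6 was seen in 2 of the 4 and 2 of the 3 cells, and Rbp4 in 1 and 0, too few cells to set a background share for Rbp4.

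Other receptors of the retinol uptake list differed widely in level. Stra6l, a relative of Stra6 that acts as a retinol receptor in other tissues, had 0 UMIs in both mice, which allows a share of cells with a UMI of up to 0.138% in R1 and 0.129% in R2 (exact intervals). Lrp2, megalin, which takes up Rbp4 in kidney, had 1493 and 1638 UMIs in 33.2% and 28.5% of cells, and its partner Cubn had 35 and 31. Lrp1, a lipoprotein receptor, was at 4.17 and 3.64 per 10000 UMIs outside Ttr in the cells above the cut, against 9.21 and 9.02 for Stra6.

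Among cells with at least 3% Ttr, neither partner passed the test of a change with Ttr. The cells of a mouse were split into 4 equal classes of Ttr UMIs per UMI outside Ttr, within each of 10 bins of depth, which gave Ttr shares of 8.78%, 10.5%, 11.9% and 14.05% in R1 and 10.2%, 12.1%, 13.3% and 15.2% in R2. Stra6 was 9.70, 9.38, 9.14 and 8.61 per 10000 UMIs outside Ttr over these Ttr classes in R1. It was 9.19, 8.89, 9.29 and 8.70 in R2, without a steady order. Between the top and bottom class, edgeR called 10 of 10633 genes (0.094%), 2 higher (0.0188%) and 8 lower (0.0752%), and neither Stra6 nor Rbp4 was among them or among the DESeq2 calls. The log2 fold change of Stra6 was -0.09 (SE 0.040, unadjusted p = 0.0506, edgeR adjusted p = 0.684), and that of Rbp4 was 0.07 (SE 0.257, edgeR adjusted p = 0.983). Rbp4 was 0.0710 and 0.0804 per 10000 in the bottom and top class of R1, and 0.0902 and 0.0844 in R2.

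**Figure D3:**
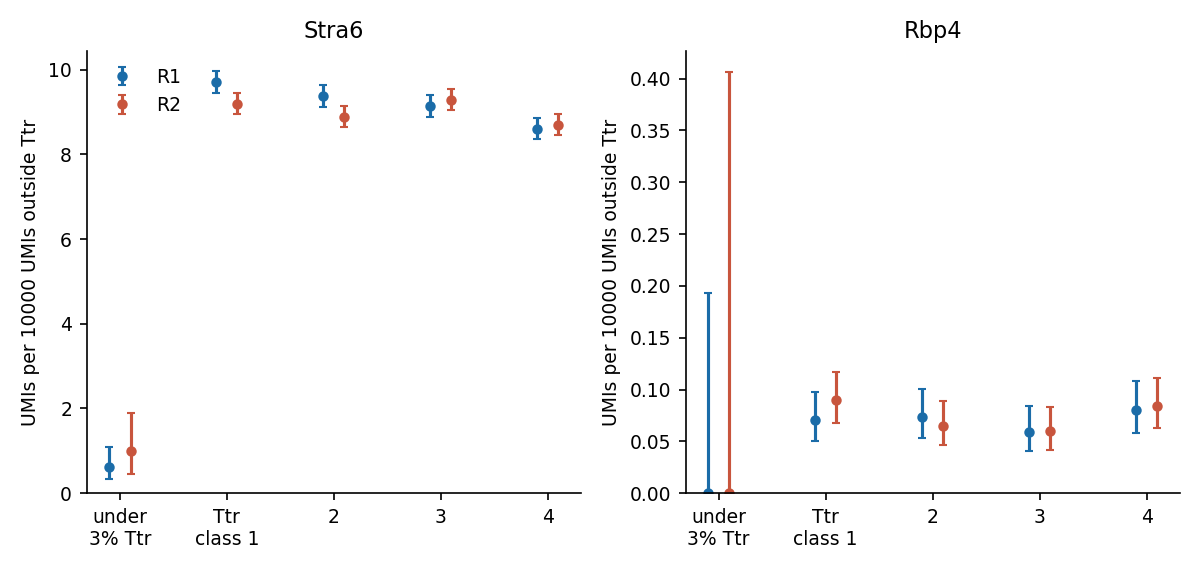
Stra6 (left) and Rbp4 (right) as UMIs per 10000 UMIs outside Ttr in the cells under 3% Ttr and in the 4 Ttr classes from lowest (1) to highest (4), for R1 (blue) and R2 (red), with exact 95% Poisson intervals for counting error. Stra6 lies between 8.61 and 9.70 in every class but at 0.628 and 0.992 in the cells under 3%, and Rbp4 has 0 UMIs in those cells with wide intervals.

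The genes called between these classes were few and of several kinds. Cst3 was higher in the top class by 0.17 on the log2 scale (SE 0.025, edgeR adjusted p = 0.033), and Mt3, a metallothionein, by 0.20 (SE 0.031, edgeR adjusted p = 0.048). Trf, transferrin, fell by 0.26 (SE 0.027, edgeR adjusted p = 0.005), with 168 against 134 per 10000 UMIs in the bottom and top class of R1 and 152 against 126 in those of R2. The other lower genes named by rule were Lyz2, C1qc and C1qa, which mark microglia or macrophages, the chemokine Cxcl2 and the early response gene Dusp1. In the bottom class, 334 of 346 microglial UMIs of R1 and 127 of 127 of R2 came from the 5 cells with the most of them. Without cells carrying at least 3 markers of microglia, fibroblasts, endothelium, pericytes, rods, cones, T cells or choroidal melanocytes, an alternative chosen after seeing the data, Cst3, Mt3 and Trf passed (adjusted p = 0.026, 0.033 and 7.50e-04 in edgeR) and Dusp1 did not (log2 fold change -0.35, edgeR adjusted p = 0.905). DESeq2 gave no adjusted p for Lyz2, C1qc, C1qa, Cxcl2 and Dusp1. Without the mouse block, Lyz2 was the 1 gene called, and Cst3, Mt3 and Trf each had an edgeR adjusted p of 1.00.

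No other gene of retinol handling was called across these classes. None of the 7 tested genes of retinol uptake, 4 of retinoid binding and storage, 7 of the visual cycle, 6 of retinoic acid and 4 of thyroid hormone transport and action was called by edgeR or DESeq2. With unadjusted p under 0.05 edgeR gave 0, 2, 1, 1 and 1 of them, against 778 of all 10633 genes (7.32%). Lrat had a log2 fold change of 0.10 (SE 0.035, edgeR adjusted p = 0.583) and Rpe65 of 0.08 (SE 0.030, edgeR adjusted p = 0.592).

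Genes were also ranked by their Pearson correlation with Ttr over single cells thinned to 3000 UMIs outside Ttr (2391 cells in R1, 2365 in R2, 1558 genes). All points share a library and the composition of the cell, so the values are descriptions. Cst3 was most like Ttr, with r of 0.763 in R1 and 0.696 in R2. High values were also found for Rgr (0.555 and 0.523), Rpe65 (0.532 and 0.502), Ptgds (0.613 and 0.450) and Rdh5 (0.526 and 0.408). Tmsb4x (-0.330 and -0.219), Folr1 (-0.275 and -0.186) and Id3 (-0.169 and -0.188) were least like it. Stra6 ranked 48 with r of 0.170 and 0.102. These values turned on the low-Ttr cells, for without them Cst3 had 0.258 and 0.207, Ptgds 0.152 and 0.139, Rgr -0.047 and -0.092 and Stra6 -0.068 and -0.045. In that set Trf was least like Ttr (-0.165 and -0.154).

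A small group of cells had almost no Ttr. The cut of 3% put 59 of 2671 cells of R1 (2.21%) and 19 of 2847 of R2 (0.667%) below it. It fell into an empty stretch, since the highest cells below it were at 2.66% in R1 and 0.755% in R2 and the lowest above it at 5.18% and 5.14%. The median Ttr share of the low-Ttr cells was 0.632% in R1 and 0.391% in R2, or a median of 20 and 15 Ttr UMIs per cell. They were shallow, with a median of 3200 and 3836 UMIs against 8688 and 7731 in the other cells. Ttr, which defined the group, stood at 5.82% of the level in other cells in R1 and 2.75% in R2. These cells are a range of Ttr and not a cell type.

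Markers showed that the low-Ttr cells were of more than one kind. At least 3 of 8 cluster C1 markers, among them Pax6, Dkk3 and Reln, were present in 54 of 59 cells of R1 and 16 of 19 of R2, against 509 of 2612 and 310 of 2828 other cells. The C1 markers come from the marker table of the study, which was made on these same samples, so they are not independent evidence. Of the 8 RPE markers, at least 3 were present in 52 of 59 low-Ttr cells of R1 and 15 of 19 of R2. The median low-Ttr cell had 4 and 3 of them, against 7 in the other cells of both mice. At least 3 pigment markers were found in 53 and 14 of the low-Ttr cells, but also in 2079 of 2612 and 1756 of 2828 other cells. At least 3 fibroblast markers were found in 3 and 2 of them, 3 microglial markers in 2 and 1, and 3 ciliary epithelium markers in 3 and 3. Rod and T cell markers were at 0 in all low-Ttr cells, and the choroidal melanocyte markers Pax3 and Mc1r were at 0 in both mice.

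Between the low-Ttr cells and all other cells of the same mouse, edgeR called 1259 of 11505 genes (10.9%), 484 higher (4.21%) and 775 lower (6.74%) in low-Ttr cells. TMM scaling corrects library sizes for a few genes that take much of the counts, and without it the split was 898 higher and 461 lower. The median log2 fold change of all genes was -0.38 with TMM and 0.21 without, and the change of Stra6 is given relative to it as well. Ttr was left out of the table because it defined the groups. The 484 higher genes include some with almost no UMIs in other cells. Such genes entered the test only through the low-Ttr cells and could only come out higher, and they were not counted apart.

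Stra6 was among the lower genes. In R1 it had 12 UMIs in 11 of the 59 low-Ttr cells, or 0.628 per 10000 UMIs outside Ttr, against 9.21 in the other cells. In R2 it had 9 UMIs in 5 of the 19 cells, or 0.992 against 9.02. The low-Ttr cells thus kept 6.82% (exact 95% interval 3.52% to 11.9%) and 11.0% (5.03% to 20.9%) of the level in other cells. The log2 fold change was -4.16 (SE 0.401, edgeR adjusted p = 6.10e-23), and relative to the median of all genes it was -3.78 with TMM and -3.78 without. The other tested settings gave values that passed, from -3.56 without TMM to -7.44 after subtraction of ambient RNA, which by its construction takes away most of so low a level. The cut at 5% left the same cells and so the same value, and values from 1 mouse had no test.

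Rbp4 had 0 UMIs in the low-Ttr cells of both mice. At the level of the other cells, 1.36 UMIs were expected in R1 and 0.680 in R2, so a loss was not detectable at this depth (edgeR adjusted p = 0.417). Of the 8 retinol uptake genes tested, 4 fell and 0 rose (list median -4.51, all genes -0.38), while 6.74% of all genes were lower. Lrp2 had 1 UMI against 1492 in R1, which is 7.59% of the level in other cells (0.192% to 42.4%), and was at least 2.06-fold lower in R2. Vldlr, a lipoprotein receptor, had no UMI in low-Ttr cells and was at least 3.56-fold and 1.58-fold lower. These bounds take 3 counts per library as the floor. Lrp1, another large lipoprotein receptor, kept 50.2% (35.9% to 68.5%) and 39.4% (20.9% to 67.3%) (log2 fold change -1.72, SE 0.360, edgeR adjusted p = 4.26e-05).

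Most tested genes of the visual cycle fell in the low-Ttr cells. Of the visual cycle genes, 5 of 7 tested fell, namely Rpe65, Rdh5, Rdh10, Rgr and Rrh, and 0 rose (list median -4.61). Of all genes, 6.74% were lower. Rpe65, the isomerase, kept 5.29% (3.97% to 6.90%) in R1 and 1.17% (0.430% to 2.55%) in R2 (log2 fold change -5.53, SE 0.410, edgeR adjusted p = 1.95e-38). Rdh5, a retinol dehydrogenase, kept 10.2% and 10.4%, and Rgr kept 6.99% and 2.46%. Of the binding and storage genes, 3 of 5 tested fell, among them Rlbp1, the retinaldehyde-binding protein, at 11.3% and 8.61%, and Lrat, at 5.62% and 3.20%. The others were not called, namely Dgat1, at 102% and 282%, and Crabp2, with 3 and 1 UMIs in low-Ttr cells.

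Dhrs3, which reduces retinal to retinol, was not called and stood at 91.2% (58.9% to 135%) and 183% (118% to 270%) of the level in other cells, with a log2 fold change of -0.24 (SE 0.385, edgeR adjusted p = 0.805) that was 0.37 without TMM. The 6 tested genes of the retinoic acid list were all receptors (Rara, Rarb, Rarg, Rxra, Rxrb and Rxrg). None was called by edgeR or DESeq2, and none had an unadjusted edgeR p under 0.05. Of all genes, 10.9% were called and 19.7% had such a p. At the level of the other cells, Rarb had the most expected UMIs of these receptors in low-Ttr cells. It had 3.78 in R1 and 1.38 in R2, so a fall of these receptors could hardly be detected at this depth. The listed genes of retinoic acid synthesis and breakdown had too few UMIs to be tested. The transcription factor Otx2, which RPE and other eye cells use, kept 42.9% (31.1% to 57.9%) and 39.7% (23.1% to 63.6%) (log2 fold change -1.86, SE 0.348, edgeR adjusted p = 2.83e-06).

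Ttr also carries thyroxine. Of the 9 thyroid hormone genes listed, 5 could be tested, and the 3 called did not share a direction. Thra, a thyroid hormone receptor, rose to 325% (235% to 438%) in R1 and 344% (212% to 527%) in R2 (log2 fold change 1.14, SE 0.403, edgeR adjusted p = 0.043), a call lost with DESeq2, without the filter on low counts and after subtraction of ambient RNA (adjusted p = 0.085, 0.088 and 0.081). Slc16a10, an amino acid and thyroid hormone transporter, had 4 UMIs in low-Ttr cells against 3 in all other cells of R1, and 8 against 2 in R2, so it entered the test only through the low-Ttr cells and had to come out higher. Slco1c1, a thyroxine transporter, fell, with 3 UMIs against 3864 in R1 and 0 against 3938 in R2, at least 4.96-fold lower in the latter (edgeR adjusted p = 1.86e-10).

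**Figure D4:**
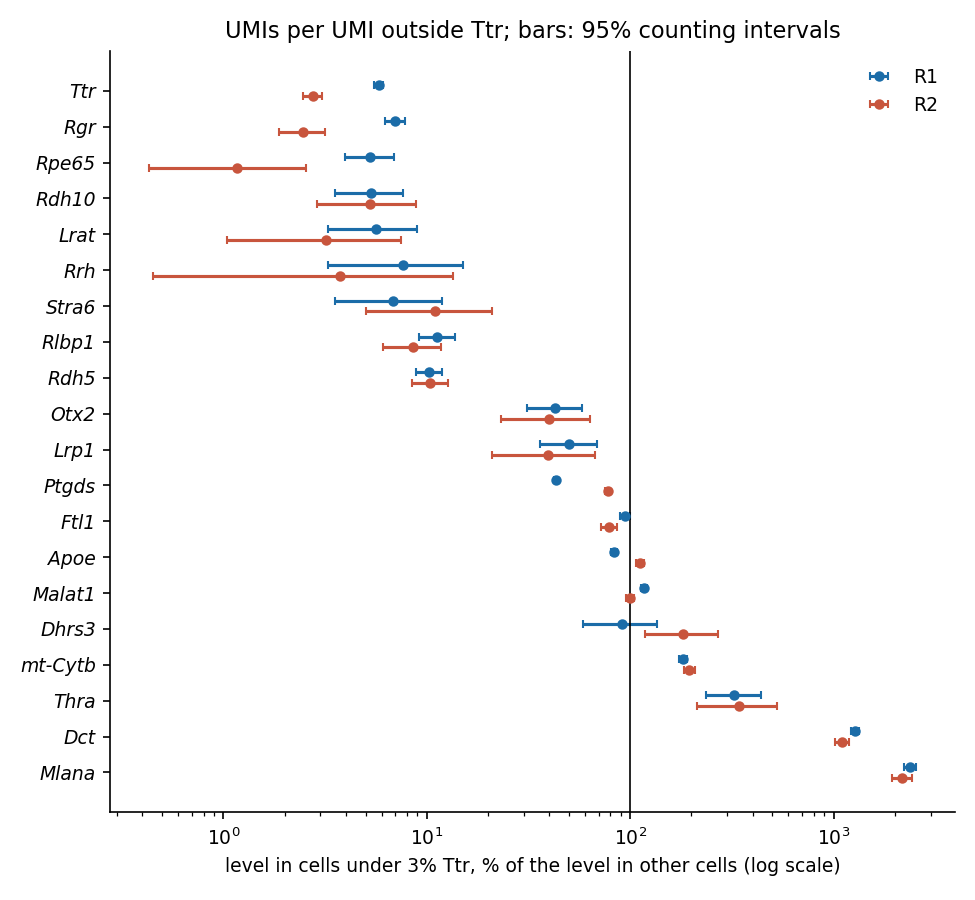
Level of 20 genes in cells under 3% Ttr as a percentage of the level in the other cells of the same mouse (log axis), for R1 (blue) and R2 (red), with exact 95% intervals for counting error and a line at 100%. Ttr and the retinoid genes from Rgr to Rdh5 lie between 1.17% and 11.3%, Otx2 and Lrp1 near 40% to 50%, and Dct and Mlana above 1000%.

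The low-Ttr cells kept much else. Their most abundant genes were Ptgds (295 and 535 per 10000 UMIs outside Ttr in R1 and R2, against 681 and 688 in other cells), Apoe (172 and 212, against 208 and 190) and Malat1 (190 and 179, against 163 and 179). Ptgds thus stood at 43.3% and 77.8% of the level in other cells, and Apoe at 83.0% and 111%. Without the 5 and 3 low-Ttr cells that carried fibroblast or microglial markers, Apoe was at 155 per 10000 in R1 and 225 in R2. Cst3, which followed Ttr most closely over single cells, kept 12.7% and 9.10%. Of the 100 genes most abundant in other cells, 55 kept 50% or more of their level in both mice. Under 50% in both mice were 36 genes, and 17 of these kept under 20% in both. Dct, a melanin enzyme, was at 124 and 77.7 per 10000 against 9.69 and 7.07 (log2 fold change 2.96, SE 0.343, edgeR adjusted p = 5.32e-16). Of the 8 pigment genes, 6 rose, Dct among them, while 4.21% of all genes were higher.

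The remaining genes in the top 10 of the low-Ttr cells were mt-Cytb, mt-Nd1 and mt-Nd4, which the mitochondrial genome encodes, Gpx3, a secreted glutathione peroxidase, and Ftl1, ferritin light chain. Mitochondrial transcripts were 2.64% and 2.81% of UMIs outside Ttr in low-Ttr cells, against 1.47% and 1.46% in the others, and ribosomal protein transcripts were 3.07% and 2.63% against 1.67% and 1.58%. Depth was not matched in this comparison. Among cells at or above 3% Ttr, the mitochondrial share was 2.44% and 1.67% in the shallowest depth class and 1.10% and 1.19% in the deepest. The ribosomal protein share of that shallowest class was 1.655% and 1.53%. Genes with large positive fold changes included Penk, Crhbp, Mfap4, Gpx3 and Ptn. Gpx3 had 23.2 and 160 per 10000 in low-Ttr cells of R1 and R2 and 0.0180 and 0.108 in other cells. It was seen in 17 of the 59 and 11 of the 19 low-Ttr cells, and Penk, Crhbp, Mfap4 and Ptn in 7 to 12 of the 59 and 4 to 7 of the 19. Penk, Crhbp, Mfap4 and Ptn had 4 to 26 UMIs over all other cells of a mouse. These 4 genes thus entered the test only through the low-Ttr cells and had to come out higher. At the other end, Stox1, Nrn1l, Npr1 and Cldn10 each had 1528 to 2518 UMIs in other cells of a mouse and 0 in low-Ttr cells. These 4 were not called by DESeq2 (adjusted p = 0.409 to 0.457).

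Transcripts of other cell types were present in the low-Ttr cells. The summed level of the 8 microglial markers was 9.22 and 12.0109 per 10000 UMIs outside Ttr in low-Ttr cells of R1 and R2, against 0.176 and 0.0574 in other cells. That of the 6 fibroblast markers was 31.1 and 22.04, against 0.0231 and 0.0999, and that of the 6 ciliary epithelium markers was 1.94 and 5.07, against 0.0199 and 0.0112. The median low-Ttr cell had none of the microglial and fibroblast markers in either mouse. Cells with ciliary markers were not among those left out, and their part in the results was not tested. Fos and Junb, genes of the dissociation response, were higher (log2 fold change 2.60 and 3.99, edgeR adjusted p = 7.31e-05 and 6.58e-19), but Fos was seen in 5 of the 59 and 1 of the 19 low-Ttr cells. Without cells that carry at least 3 markers of microglia, fibroblasts, endothelium, pericytes, rods, cones, T cells or choroidal melanocytes, of which 5 low-Ttr cells of R1 and 3 of R2 were concerned, their log2 fold changes were -1.43 and 0.49 and neither passed (edgeR adjusted p = 0.694 and 0.872). In the same setting, 4 of 8 tested retinol uptake genes fell, as did 3 of 4 of binding and storage and 5 of 7 of the visual cycle. Of all 11377 genes tested there, 638 were lower. Hspa1a, the remaining dissociation gene called, was lower in both settings (log2 fold change -3.18 and -3.13).

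These 5 and 3 low-Ttr cells, which carried fibroblast or microglial markers, were set beside the other low-Ttr cells as a description, and they also held RPE transcripts. Ttr was 87.9 per 10000 UMIs outside Ttr (exact 95% Poisson interval 74.1 to 104) in these cells of R1 and 73.2 (69.2 to 77.3) in the other 54 low-Ttr cells. In R2 it was 36.6 (25.04 to 51.7) in these cells and 40.5 (36.2 to 45.1) in the other 16. Both lay far under the 1279 and 1458 of the cells above the cut.

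The summed level of the 8 RPE markers was 29.7 (21.9 to 39.4) in the marked and 37.9 (35.1 to 40.9) in the other low-Ttr cells of R1, and 9.15 (3.95 to 18.04) and 27.1 (23.6 to 30.9) in those of R2, against 449 and 513 above the cut. Stra6 had no UMI in the marked cells, with an upper limit of 2.28 and 4.22 per 10000, which includes the level in the other low-Ttr cells. Other genes told these cells apart, since Ptgds was at 39.0 and 11.4 in the marked but 318 and 591 in the other low-Ttr cells, Dct at 0.619 and 0 against 135 and 86.0, and Pax6 at 0 in the marked against 7.72 and 5.12. Apoe differed in direction between the mice, at 356 in the marked against 155 in R1 and 90.4 against 225 in R2.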

How the data were processed

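Single RPE cells of 2 mice were measured. The authors made the reads into UMI counts per gene and cell with bcl2fastq 2.20.0.422 and Cell Ranger 1.2.0 on GRCm38, per the submitters' processing notes, and the deposited counts are whole numbers without normalization. Gene positions came from GENCODE M21. Depth was 26034378 UMIs in 2844 cells of R1 and 29732969 in 2994 cells of R2.

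Cells with under 500 genes, over 5% mitochondrial UMIs or among the 4% with the highest doublet score (artificial doublets, 10 principal components) were left out. No low-Ttr cell was removed as a doublet. All deposited cells held 68 cells under 3% Ttr in R1 and 21 in R2, against 59 and 19 kept. The rest failed the gene or mitochondrial filter. The limit of 5% also caps the mitochondrial share of the low-Ttr cells kept. UMIs were summed per mouse and class, which gave 4 libraries a test. The sums of a pair come from the same mouse, so the mouse was a block. edgeR 4.0.16 in R 4.3.3 was used with TMM, filterByExpr and Benjamini-Hochberg adjustment, and DESeq2 1.42.0 as an alternative. Each SE printed is the size of the edgeR log2 fold change over the square root of the F statistic of its test. It therefore holds no information on spread apart from the p-value. The block takes out the difference in level between the mice. The edgeR p-values thus rest on how alike the class difference was in the 2 mice, with a dispersion partly shared over genes. With 2 mice, they say little about other mice.

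The members, gene lists and tests were chosen with earlier results of these data known. Named genes were the members, the genes of 6 lists, the 5 most abundant genes besides Ttr, the 6 largest changes each way, the 6 genes most and 3 least like Ttr, and the top 10 of low-Ttr cells. A few genes that this rule names are not reported here. SoupX was not used. An ambient profile of 10% of UMIs was subtracted as an alternative. Other alternatives concerned doublets, cell filter, scaling, count filter, block, classes and cut.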

Additional observations from a re-analysis of the deposited data

How the results depend on the processing

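The Ttr share kept its value within the spread between the mice under the alternatives of cells and denominator, while the subtraction of a mouse's own mean profile cannot move its total share. Rbp4 and Stra6 moved beyond that spread in some settings. The spread was small for them, with 9.14 and 8.99 per 10000 for Stra6 and 0.0705 and 0.0746 for Rbp4 in R1 and R2. Thinned to 3000 UMIs, Stra6 was in 89.9% and 88.8% of cells and Rbp4 in 2.22% and 1.73%, at 0.0878 and 0.0817 Rbp4 UMIs per 10000 and 8.87 of Stra6 in R2. With doublets kept, Rbp4 was 0.0797 in R1 and 0.0714 in R2, and with all deposited cells 0.0796 and 0.0712. Likeness to Ttr without the low-Ttr cells, as the smaller correlation of the mice, was 0.207 for Cst3, 0.0546 for Rpe65 and 0.139 for Ptgds, and it changed sign to -0.0468 for Rgr, -0.0369 for Rdh5, -0.0446 for Stra6, 0.00546 for Id3 and 0.0112 for Tmsb4x, with Folr1 at -0.0204.

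In the low-Ttr comparison, 898 genes were higher and 461 lower without TMM, 433 lower with DESeq2, and 912 higher and 1326 lower without the mouse block. Dhrs3 was 0.37 without TMM, Malat1 0.13, and Fos -1.43 without cells with markers of other types (ciliary epithelium not counted). With 1 mouse, Stra6 ranged from -3.87 to -3.19, Dhrs3 was 0.87 in R2, Apoe 0.16 in R2 and Malat1 ranged from -7.31e-04 to 0.23. Between depth classes, 132 lower calls became 38 with ambient subtraction, 79 without TMM, 57 with DESeq2, 50 without the block and 48 without low-Ttr cells, and 5 higher calls became 0 in each of these but the last, where 1 was called. They were 0 with doublets kept or all cells, 24 without the count filter and 18 with 3 depth classes. Rbp4 was -0.27 with 3 depth classes, -0.088 without low-Ttr cells and ranged from -0.81 to 1.82 with 1 mouse, and Stra6 from 0.10 to 0.13 and Ttr from -0.13 to -2.29e-05.

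Between the Ttr classes, higher and lower calls were 19 and 18 with doublets kept, 52 and 26 with all cells, 36 and 29 with ambient subtraction, 4 and 14 without TMM, 4 and 2 with DESeq2, 0 and 1 without the block, 55 and 31 without matching for depth, 33 and 23 with 3 classes and 9 and 4 without cells with markers of other types. Without the count filter 1 was higher. Rbp4 was -0.23 with doublets kept and -0.24 with all cells. With 1 mouse, Rbp4 ranged from -0.10 to 0.18 and Stra6 from -0.17 to -0.08. The block changed no call of a member. Removing 1 mouse leaves no replicate, so these values carry no test. The causes of these differences were not tested. Rbp4 and other genes under a few UMIs in the 78 low-Ttr cells are limited by depth.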
